A study of Homo sapiens with 6 samples.

Results

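The SOCS family and CISH are 8 genes, SOCS1, SOCS2, SOCS3, SOCS4, SOCS5, SOCS6, SOCS7 and CISH, that encode proteins with a central SH2 domain and a C-terminal SOCS box. They were chosen by gene name, as a family, and no measured value enters that rule. Of the 8, 7 had a row among the 63677 genes counted and all 7 passed the filter on low counts, which left 16926 genes to test. SOCS7 was not analysed here, because the identifier matched to that name had no row. The counts came from RNA-Seq of RPMI8226 cells, an established human multiple myeloma cell line labelled wild type (WT). Cells received 100 nM GST-PTR1 or 100 nM GST for 6 hr, with 3 biological replicates of each treatment. In GST-PTR1, glutathione-S-transferase (GST) carries the PTR1 domain of HAPLN1, a protein of the extracellular matrix. The control received GST without that domain, so both groups were given a recombinant protein. The comparison rests on 1 cell line at 1 dose and 1 time, and it asks which mRNA levels differ between cells given the HAPLN1 domain and cells given its carrier.

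Cytokines that act through JAK kinases and STAT transcription factors switch on genes of the SOCS family, whose products then dampen the same receptors, which makes the family a classical negative feedback system. CISH, SOCS1, SOCS2 and SOCS3 are the members best known for this role, and SOCS4, SOCS5, SOCS6 and SOCS7 are better known for acting on receptor tyrosine kinases and their adaptors. The SOCS box recruits elongins B and C and cullin-5, through which a bound protein can be tagged with ubiquitin. Multiple myeloma is a malignancy of plasma cells, in which IL-6 acting through JAK and STAT3 is a known survival signal.

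Library totals ran from 15202503 to 23453473 counts with GST and from 22874133 to 44688737 counts with GST-PTR1, so depth moved with the treatment. All values below follow this order of rising total within each treatment. Levels of 1 gene are compared as CPM, counts brought to a common library size, on library totals scaled by TMM factors, which ranged from 0.883 to 1.10 and correct for RNA composition. Levels of different genes are compared as RPKM, which also divides by the exon length of each gene and uses unscaled totals. Differences were tested on the counts with edgeR's quasi-likelihood test and Benjamini-Hochberg adjustment over all genes tested, and a gene was called at an adjusted p under 0.05. The 10 plasma cell markers, summed, lay at 6489 to 7784 CPM with GST and 7290 to 8755 CPM with GST-PTR1, and the 5 stromal markers at 0.240 to 0.521 CPM with GST and 0.380 to 0.404 CPM with GST-PTR1. Of the stromal markers, COL1A2, COL3A1 and DCN had 0 counts in all 6 libraries, PDGFRB 0 to 2 and COL1A1 4 to 13 counts per library. Among the plasma cell markers, SLAMF7, PRDM1 and IRF4 rose and SDC1, TNFRSF17 and XBP1 fell at this threshold. Summed B cell markers lay at 276 to 321 CPM with GST and 219 to 288 CPM with GST-PTR1, T and NK cell markers at 63.0 to 87.3 and 41.8 to 56.2 CPM, monocyte markers at 0.710 to 1.5 and 0.586 to 0.852 CPM. The part of any of these in the results was not tested.

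SOCS1 and SOCS3 rose with GST-PTR1, while none of the other 5 measured members was called. The 2 of 7 members called higher stand beside 9.15% of all genes tested, and the 0 of 7 called lower beside 11.4%. At an unadjusted p under 0.05, which 35.2% of all genes reached, SOCS1 and SOCS3 were again the 2 members that passed and 0 were lower, as did DESeq2's test and limma's voom at an adjusted p under 0.05. Scaling on library totals without TMM factors shifted the median of all genes from 0.01 to -0.19 on the log2 scale and the calls over all genes from 1549 higher and 1937 lower to 927 and 3795, and 2 members, SOCS2 and SOCS5, were then called lower. The median log2 fold change over the 7 members was -0.08. In bulk RNA, more cells that express a gene and more RNA per cell cannot be told apart.

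**Figure D1:**
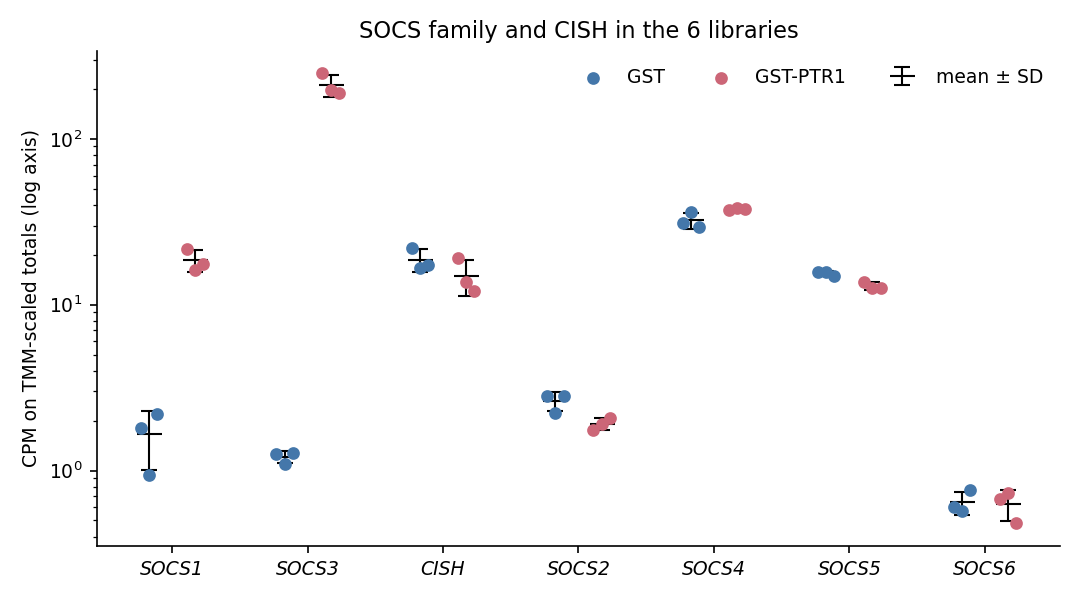
CPM on TMM-scaled totals (log axis) of the 7 measured genes in the 3 GST and 3 GST-PTR1 libraries, with the mean and SD of each treatment. SOCS3 moved from 1.21 to 211 CPM and SOCS1 from 1.65 to 18.5 CPM, while the points of the other 5 genes lie close together or overlap.

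SOCS3 (ENSG00000184557, GRCh37 chromosome 17, 76352864 to 76356158, minus strand) encodes an inhibitor that binds gp130, the shared receptor chain of the IL-6 family, and blocks JAK activity. Its counts were 21, 23 and 32 with GST and 5539, 5353 and 7457 with GST-PTR1. As CPM these were 1.26, 1.09 and 1.28 with GST and 248, 196 and 189 with GST-PTR1. Every GST-PTR1 library lay far above every GST library, and the libraries of each treatment lay close together. The log2 fold change was 7.44 ± 0.18 (SE, n = 3 against 3, 95% interval 7.05 to 7.83, edgeR adjusted p = 1.09e-09), a 173.6-fold rise and rank 14 of the 16926 genes tested. Measured per length, SOCS3 moved from the low end to near the top of the genes tested, from percentile 10.9 of mean RPKM with GST to percentile 94.8 with GST-PTR1.

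SOCS1 (ENSG00000185338, GRCh37 chromosome 16, 11348262 to 11350036, minus strand) encodes the inhibitor that acts on JAK1, JAK2 and TYK2 and is best known for restraining interferon signaling. It had 30, 20 and 55 counts with GST and 484, 443 and 696 with GST-PTR1. These were 1.80, 0.947 and 2.20 CPM with GST and 21.7, 16.2 and 17.6 CPM with GST-PTR1. The treatments did not overlap, but the GST libraries were spread over more than a doubling, with a coefficient of variation of 38.9%. The log2 fold change was 3.47 ± 0.25 (SE, n = 3 against 3, 95% interval 2.93 to 4.01, edgeR adjusted p = 2.70e-06), an 11.1-fold rise and rank 125 of all genes tested. Its mean RPKM moved from percentile 25.8 to percentile 76.6.

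Both rises were called in every one of 15 other settings, with log2 fold changes of 7.25 to 7.52 for SOCS3 and 3.19 to 3.78 for SOCS1. With every library thinned to the smallest total, which removes the difference in depth, the log2 fold change was 7.43 for SOCS3 and 3.51 for SOCS1. An exact permutation test of a single gene cannot go below p = 0.1 with 3 libraries against 3, so the p-values rest on the model of spread across all genes.

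CISH (ENSG00000114737, GRCh37 chromosome 3, 50643921 to 50649262, minus strand) encodes the founding member, a target gene of STAT5 that acts on the receptors of IL-2, IL-3, erythropoietin and growth hormone. It had 22.0, 16.6 and 17.3 CPM with GST and 19.1, 13.7 and 12.1 CPM with GST-PTR1, from 351 to 479 counts per library. The treatments overlapped, since the highest GST-PTR1 library lay above 2 of the GST libraries. The log2 fold change of -0.32 ± 0.18 (SE, 95% interval -0.72 to 0.07, edgeR adjusted p = 0.224) did not pass the threshold. It rests in part on 1 library: without the GST-PTR1 library of 22874133 counts, CISH was called lower at -0.53 (edgeR adjusted p = 0.0409).

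SOCS2 (ENSG00000120833, GRCh37 chromosome 12, 93963590 to 93977263, plus strand) encodes the main brake on growth hormone receptor signaling. It had 47, 47 and 70 counts with GST and 39, 52 and 82 with GST-PTR1, or 2.82, 2.22 and 2.81 CPM against 1.75, 1.90 and 2.08 CPM. Every GST-PTR1 library lay below every GST library, by a narrow gap. The log2 fold change of -0.44 ± 0.20 (SE, 95% interval -0.89 to 0.00) had an edgeR adjusted p of 0.146. Scaled on library totals alone, SOCS2 was called lower, at -0.65 (adjusted p = 0.0390).

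SOCS4 (ENSG00000180008, GRCh37 chromosome 14, 55493948 to 55516206, plus strand) and SOCS5 (ENSG00000171150, GRCh37 chromosome 2, 46926091 to 46990268, plus strand) encode a closely related pair with long N-terminal regions, both linked to turnover of the EGF receptor. SOCS4 had 30.9, 36.3 and 29.4 CPM with GST and 37.3, 38.3 and 37.7 CPM with GST-PTR1. SOCS5 had 15.7, 15.7 and 14.8 CPM with GST and 13.8, 12.6 and 12.5 CPM with GST-PTR1. In neither gene did the treatments overlap, SOCS4 being higher and SOCS5 lower with GST-PTR1, but both gaps were small beside those of SOCS1 and SOCS3. The log2 fold change was 0.23 ± 0.11 for SOCS4 (SE, 95% interval -0.02 to 0.48, edgeR adjusted p = 0.175), and 0.03 when scaled on library totals (adjusted p = 0.862). For SOCS5 it was -0.25 ± 0.12 (SE, 95% interval -0.50 to 0.01, edgeR adjusted p = 0.154), and scaling on library totals turned this into a call, at -0.44 (adjusted p = 0.0276).

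SOCS6 (ENSG00000170677, GRCh37 chromosome 18, 67956137 to 67997436, plus strand) encodes a member known for binding the receptor tyrosine kinase KIT. It had only 10, 12 and 19 counts with GST and 15, 20 and 19 with GST-PTR1, between 0.482 and 0.761 CPM in all 6 libraries. The treatments overlapped and the log2 fold change was -0.08 ± 0.31 (SE, 95% interval -0.76 to 0.61, edgeR adjusted p = 0.881). With so few counts the interval takes in a rise of 0.61 as well as a drop of 0.76 on the log2 scale, and the sign turned with thinning (0.24).

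Counted over the 7 members, 5 had no overlap between treatments, 3 of them higher (SOCS1, SOCS3 and SOCS4) and 2 lower (SOCS2 and SOCS5) with GST-PTR1. Of all genes tested, 40.4% did not overlap.

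**Figure D2:**
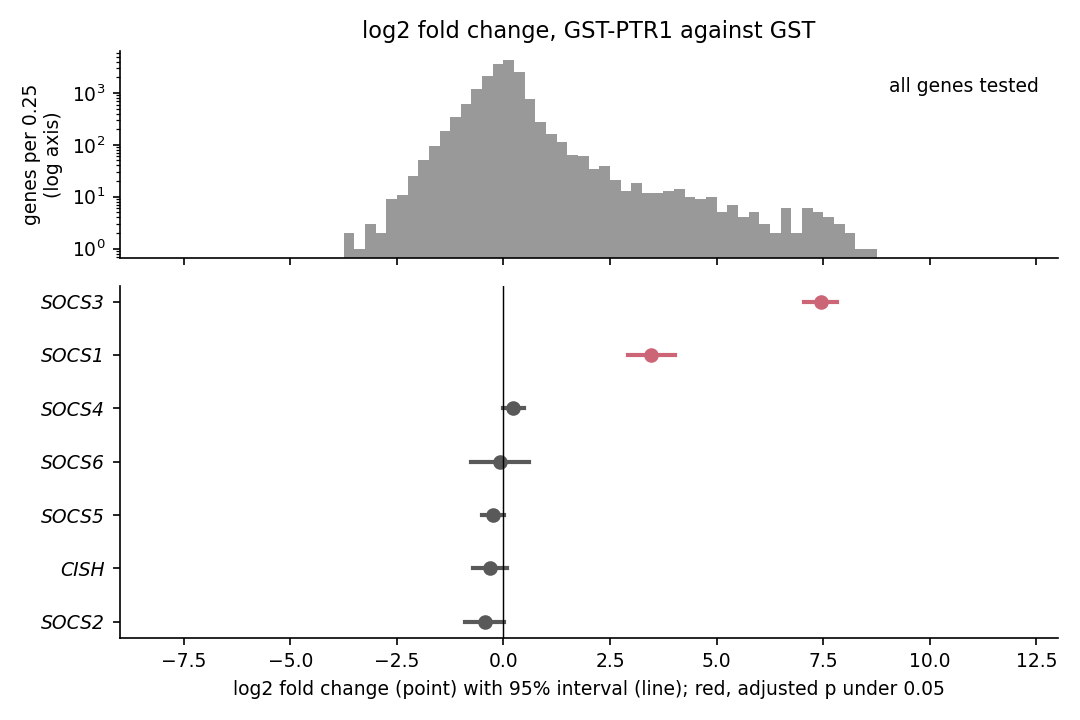
Log2 fold change of GST-PTR1 against GST for all 16926 genes tested (top, genes per bin on a log axis) and for the 7 measured members with 95% intervals (bottom; red, adjusted p under 0.05). SOCS3 at 7.44 and SOCS1 at 3.47 lie in the right tail, and the intervals of the other 5 members reach or cross 0.

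On the RPKM scale the order of the members changed. The length in RPKM counts every annotated exon base of a gene, which can exceed the mRNA made and then lowers the RPKM. For CISH it was 5112 bases, nearly the whole span of the gene. The order of different genes and their shares of the sum depend on these lengths, while the change of 1 gene between treatments does not. With GST, SOCS4 was highest at 4.89 ± 0.502 RPKM (SD, n = 3), followed by CISH at 3.91 ± 0.698, SOCS5 at 3.27 ± 0.138 and SOCS1 at 1.45 ± 0.569 RPKM. SOCS3 followed at 0.475 ± 0.0482 RPKM, ahead of SOCS2 at 0.414 ± 0.0599 and SOCS6 at 0.115 ± 0.0183 RPKM. The ranges of SOCS4 and CISH overlapped over libraries, as did those of SOCS3 and SOCS2, although in each pair the former was higher in 3 of 3 libraries.

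With GST-PTR1, SOCS3 was first at 72.6 ± 14.4 RPKM (SD, n = 3) and SOCS1 was next at 14.2 ± 2.68 RPKM. SOCS4 followed at 5.01 ± 0.247, CISH at 2.75 ± 0.793, SOCS5 at 2.41 ± 0.237, SOCS2 at 0.263 ± 0.0100 and SOCS6 at 0.0988 ± 0.0243 RPKM. Among these neighbours the ranges of CISH and SOCS5 alone overlapped, with CISH higher in 2 of 3 libraries. The 5 members not called kept the same order among themselves under both treatments.

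Summed over the 7 members, the level was 14.5 ± 0.957 RPKM with GST and 97.3 ± 18.2 RPKM with GST-PTR1. SOCS3 made up 3.04% to 3.53% of that sum with GST and 73.5% to 75.3% with GST-PTR1. SOCS1 made up 5.89% to 13.5% with GST and 13.8% to 15.3% with GST-PTR1. SOCS4, CISH and SOCS5, which held most of the sum with GST (mean shares of 33.8%, 26.8% and 22.6%), held 5.24%, 2.79% and 2.50% with GST-PTR1. The ratio of SOCS3 to SOCS1 in RPKM was 0.314, 0.516 and 0.261 with GST and 5.14, 5.42 and 4.81 with GST-PTR1. SOCS1 was thus the higher of the pair in every GST library and SOCS3 in every GST-PTR1 library.

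**Figure D3:**
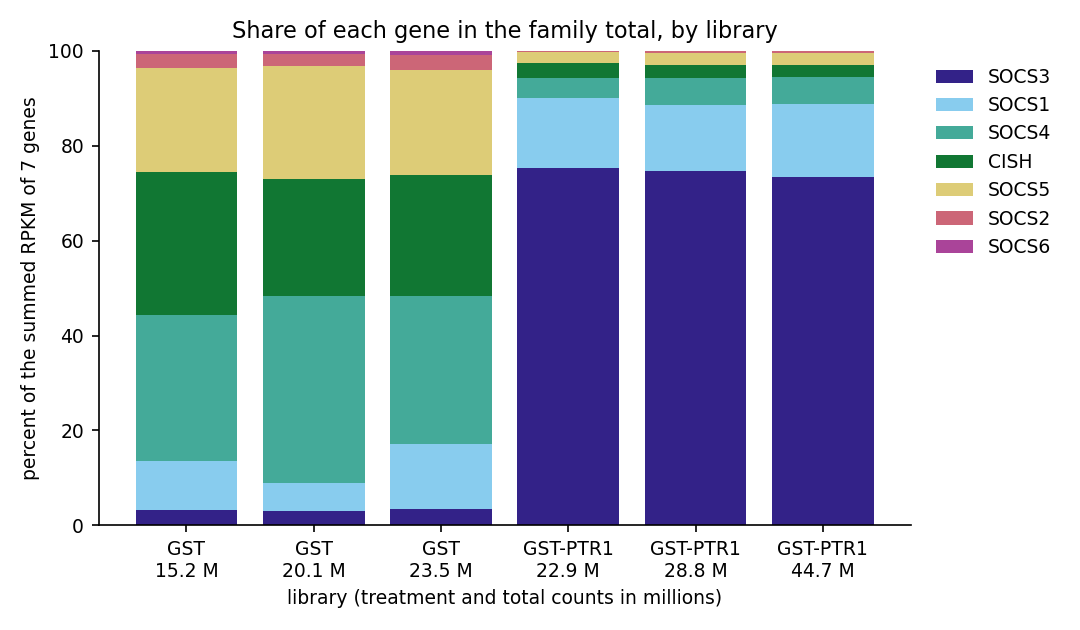
Share of each gene in the summed RPKM of the 7 measured members, in percent, for each library (treatment and total counts). SOCS3 takes 3.04% to 3.53% of the sum with GST and 73.5% to 75.3% with GST-PTR1.

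The genes whose pattern over the 6 libraries was most like that of a called member were ranked by the root mean square distance between log2 CPM values centred on each gene's mean. Nearest to SOCS3 were ELF3 (distance 0.224, log2 fold change 7.16), an epithelial ETS transcription factor, CXCR5 (0.273 and 7.58), the receptor for the B cell chemokine CXCL13, and MIR155HG (0.277 and 7.16), the host transcript of miR-155. Nearest to SOCS1 were MYBPH (distance 0.199, log2 fold change 3.45), a myosin-binding protein, CSF1 (0.22 and 3.28), the macrophage growth factor, and CYP21A1P (0.221 and 3.79). CYP21A1P is a pseudogene with a near-identical functional copy, so its counts are uncertain. Ranking by Pearson's r shared 0 of the 3 genes for either member. An r over 0.98 was found for 378 genes with SOCS3 and for 175 with SOCS1. The 6 libraries fall into 2 treatments, and genes with such an r share that step.

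The genes next to the members were examined because position was not used to choose them. SOCS3-DT, a divergent transcript that starts 375 bases from SOCS3 on the opposite strand, had 0, 1 and 1 counts with GST and 8, 14 and 11 with GST-PTR1. It was too low to be tested, and the ratio of its summed counts per total was 10.1 (exact 95% interval 2.57 to 86.5, for counting error only). PGS1, the nearest tested gene on that side at 18562 bases, rose by 0.45 on the log2 scale (SE 0.11, edgeR adjusted p = 0.0137). On the other side the nearest gene was ENSG00000267737 at 8984 bases, too low to be tested. It had 0, 0 and 0 counts with GST and 2, 3 and 4 with GST-PTR1. BIRC5, the nearest tested gene on that other side at 131146 bases, was at 0.23 (edgeR adjusted p = 0.223). The rise of SOCS3 was thus many times that of its tested neighbours.

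RMI2, a subunit of the BLM helicase complex, spans SOCS1 on the opposite strand without sharing an exon base with it. RMI2 fell by 0.59 on the log2 scale (SE 0.11, edgeR adjusted p = 0.00367), against the rise of SOCS1. HNRNPCP4, a pseudogene 10852 bases from SOCS1, rose by 0.61 (edgeR adjusted p = 0.00328), and its counts are uncertain because it resembles its parent gene. TNP2, on the other side, had 0 counts in every library.

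Around the 5 members not called, no adjacent or overlapping gene that could be tested was called. WDHD1, 124 bases from SOCS4, was at -0.03 and MAPK1IP1L on its other side at 0.20 on the log2 scale. CRIPT beside SOCS5 was at -0.01 and RTTN beside SOCS6 at -0.03. Farther off, 895503 bases from SOCS6 on its other side, ENSG00000263733 fell by 2.11 (edgeR adjusted p = 0.0228) on 0 to 12 counts per library. CISH shares 218 exon bases (4.26% of its 5112) with MAPKAPK3 on the opposite strand, which was at -0.18 (edgeR adjusted p = 0.218). SOCS2 shares 277 exon bases (4.09% of its 6776) with SOCS2-AS1, which had 2 to 11 counts per library. Counting was by strand, and no member shares an exon base with a gene on its own strand.

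The stretch before the RefSeq start of 5 members (CISH, SOCS1, SOCS3, SOCS4 and SOCS6) was searched on both strands for TTCNNNGAA, the form that most STAT factors bind, for the form with 1 more base of spacing that STAT6 prefers, for TGANTCA, bound by AP-1, and for the NF-κB consensus. The sequences come from RefSeq on GRCh38.p14, a later build than the GRCh37 of the counts. CISH held 4 copies of TTCNNNGAA in the 250 bases before its start, and the searched windows of the other 4 members held 0. Of all 35114 windows of this length, 6.57% held at least 1 copy and 0.0142% (5 windows) held 4 or more. CISH was not called, and its mean CPM was 15 ± 3.64 with GST-PTR1 and 18.6 ± 2.91 with GST (SD, n = 3). Whether these copies bear on its level was not tested. SOCS1 held 1 match to the NF-κB consensus, present in 9.96% of windows, and 1 to the interferon regulatory factor (IRF) element, a repeat of GAAA with 2 bases between, present in 3.02%. The STAT6 form (5.38% of windows) and the AP-1 form (6.57%) were in none of the members' windows. The IRF element was added to the search after the sequences had been read. The sequences of CISH and SOCS1 are shown because they carry these matches, which are in capitals and do not overlap each other. CISH lies on the minus strand at chr3:50611832-50612024 (GRCh38.p14), 250 to 58 bases before its start (the bases nearer the start, which GENCODE v29 places inside the gene, are left out), and SOCS1 on the minus strand at chr16:11256205-11256454 (GRCh38.p14), 250 to 1 bases before its start.
CISH: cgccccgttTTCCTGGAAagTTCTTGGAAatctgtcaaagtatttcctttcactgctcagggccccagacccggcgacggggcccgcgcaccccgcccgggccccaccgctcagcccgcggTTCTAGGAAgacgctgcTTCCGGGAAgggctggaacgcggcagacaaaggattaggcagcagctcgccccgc
SOCS1: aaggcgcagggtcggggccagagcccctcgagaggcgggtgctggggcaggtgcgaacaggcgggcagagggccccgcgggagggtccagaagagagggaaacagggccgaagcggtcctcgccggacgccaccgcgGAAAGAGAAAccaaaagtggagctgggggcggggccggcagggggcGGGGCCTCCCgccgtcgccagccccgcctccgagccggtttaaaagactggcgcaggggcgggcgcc
The copies in CISH lie 241, 230, 129 and 112 bases before the start, as close pairs. In SOCS1 the IRF match begins 113 bases and the NF-κB match 67 bases before the start. Neither of the 2 SOCS3 windows covers the bases just before the SOCS3 start in the GENCODE v29 annotation, and they held no match, which says only that these letters are not in those windows. A match is a string of letters and was not tested for binding.

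The other genes of the pathway were taken as 8 lists, grouped by role and written with earlier results of these data known. The subunits of the ubiquitin ligase that SOCS boxes recruit were all tested and none of the 8 was called, with log2 fold changes between 0.09 and 0.38. ELOC (elongin C), which bridges the SOCS box to the cullin, was at 0.38 (adjusted p = 0.0930), the only 1 of the 8 at an unadjusted p under 0.05. ELOB (elongin B) was at 0.28, RBX1 at 0.20, NEDD8 at 0.19, the scaffold CUL5 at 0.17, RNF7, the RING partner of CUL5, at 0.13, and ARIH2 and UBE2F at 0.09 each. DESeq2's test and voom also called 0 of the 8. Of 29 other SOCS-box proteins, which use the same ligase with different substrate domains, 17 were tested, of which 2 rose and 5 fell (median -0.25), beside 9.15% and 11.4% of all genes tested. SPSB1 rose by 1.07, RAB40B fell by 1.04 and ASB13 fell by 0.49, while SPSB4 had the largest adjusted p at 0.753.

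Of the 11 JAK kinases and STAT factors, 7 rose and 0 fell, beside 9.15% and 11.4% of all genes tested. Their median was 0.71, against 0.01 for all genes. JAK3, the kinase paired with the common gamma chain, rose most, by 2.43 on the log2 scale (SE 0.22, edgeR adjusted p = 1.87e-05). STAT3, the main factor of IL-6 family cytokines, rose by 1.62 (SE 0.11, edgeR adjusted p = 1.46e-06). STAT5A rose by 0.94 and TYK2 by 0.49, while STAT6 at 0.32 and JAK1 at 0.08 were not called. In a test against a 2-fold change, 2 of the 11 were called. The log2 fold changes of SOCS3 and SOCS1 exceeded that of every one of these factors.

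Other negative regulators of the pathway were mixed. Of 13 tested, 4 rose, none by 2-fold, and 3 fell (median -0.06), beside 9.15% and 11.4% of all genes tested. SH2B3 (LNK), an adaptor that restrains JAK2, rose by 0.85, PTPN2, a phosphatase of JAK1, by 0.63, and PTPRC (CD45) by 0.66, while DUSP22 was at -0.06 (adjusted p = 0.675). None of these 13 genes rose as far as SOCS1, at 11.1-fold, or SOCS3, at 173.6-fold.

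Of 40 cytokine and hormone ligands that signal through these receptors, 16 were tested and 11 rose, all by at least 2-fold, with 0 falling. Of all genes tested, 9.15% rose, 3.68% rose by at least 2-fold and 11.4% fell. LIF, which signals through gp130, rose by 5.95 on the log2 scale (SE 0.14, edgeR adjusted p = 1.09e-09). LIFR, the LIF receptor chain, was among 14 receptor chains not tested, all at 9 counts or fewer per library. EBI3, the shared subunit of IL-27 and IL-35, rose by 6.73 and IL10 by 8.60, while THPO was at 0.07 (adjusted p = 0.823). Only 11 of the 16 would pass the filter on the GST libraries alone, of which 6 rose (median 1.38), so the others, EBI3 among them, were tested because they were high with GST-PTR1. IL6, IL27 and CSF3 were at or under 3 counts in every GST library, and with these 3 at their lower bound the median of the list was 2.64 rather than 2.91.

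Of 40 receptor chains, 26 were tested, of which 10 rose and 1 fell (median 0.26), beside 9.15% and 11.4% of all genes tested. On the GST libraries alone 24 would pass the filter, of which 9 rose and 1 fell (median 0.19), and IL2RA is not among them. IL2RA, the alpha chain of the IL-2 receptor, had 1, 1 and 4 counts with GST and 235, 539 and 796 with GST-PTR1. IL15RA rose by 1.44 and IFNGR2, a chain of the interferon-gamma receptor, by 1.17 on the log2 scale, while LEPR, the leptin receptor, had the largest adjusted p at 0.999. Of 14 kinase receptors and adaptors that SOCS proteins are known to act on, 10 were tested and 1 rose and 1 fell (median -0.32), a share near the 9.15% and 11.4% of all genes tested. Scaled on library totals 7 of the 10 were lower, beside 3795 of the 16926 genes tested, which is a smaller share. VAV1, an exchange factor bound by SOCS1, rose by 1.69, and IRS2, an insulin receptor substrate targeted by SOCS1 and SOCS3, fell by 1.35. MAP3K5 was at -0.33 (adjusted p = 0.0660) and INSR at -0.02 (adjusted p = 0.929).

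All 20 target genes of STAT factors outside the family were tested. Of these, 15 rose and 0 fell (median 1.52), beside 9.15% and 11.4% of all genes tested. By at least 2-fold, 14 of the 15 rose, beside 3.68% of all genes tested. On the GST libraries alone 19 would pass the filter, all but CEBPD, and 14 of these rose (median 1.42). Many genes of this list are known targets of NF-κB as well. JUNB, a subunit of AP-1, rose by 3.10, CEBPD, a C/EBP transcription factor, by 5.01 and PIM1, a survival kinase, by 2.23 on the log2 scale, while TIMP1 was at 0.04 (adjusted p = 0.886). In these terms SOCS1 lay above JUNB and below CEBPD, and SOCS3 lay above all 20. CISH, itself a known STAT target, was at -0.32 (95% interval -0.72 to 0.07) and not called. The lowest of the 20 was at -0.13 (95% interval -0.49 to 0.23), and these 2 intervals overlapped.

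**Figure D4:**
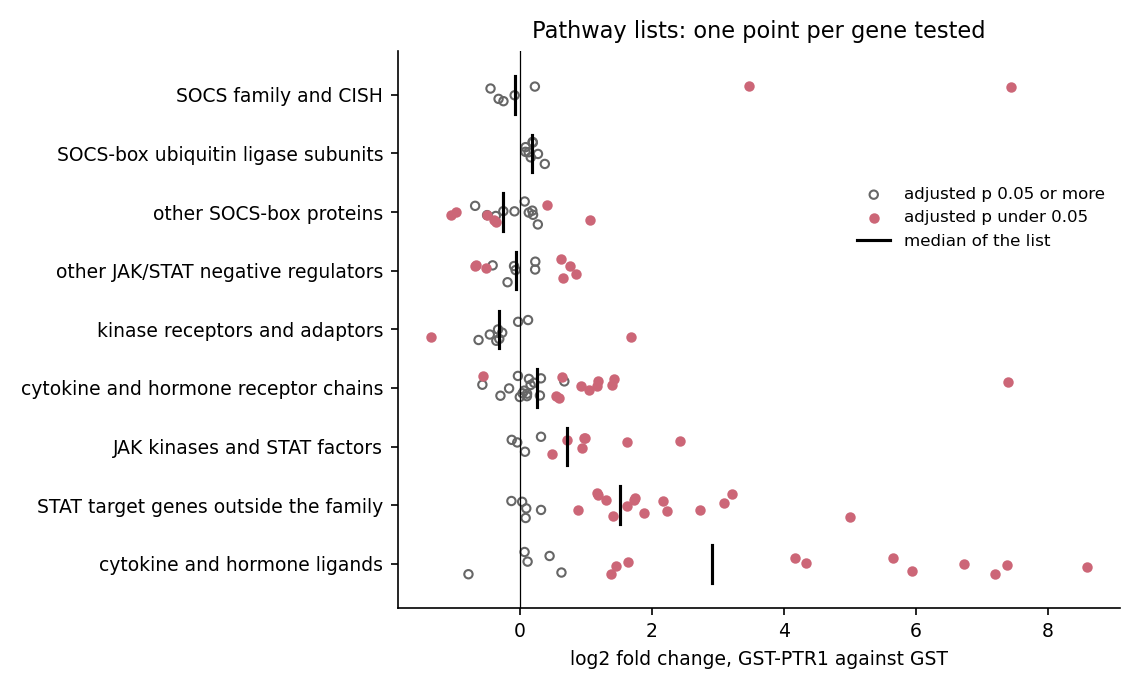
Log2 fold change of GST-PTR1 against GST, 1 point per gene tested, for the SOCS family and CISH and 8 pathway lists (filled points, adjusted p under 0.05; bars, medians). The family median lies at -0.08 with SOCS1 and SOCS3 far to the right, and the medians of the JAK kinases and STAT factors, the STAT targets and the ligands lie at 0.71, 1.52 and 2.91 (1.42 for the STAT targets and 1.38 for the ligands over genes that pass the filter on the GST libraries alone).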

How the data were processed

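RNA-Seq counts of the 3 GST and 3 GST-PTR1 libraries were used as deposited: per the file headers, the authors counted reads per gene with featureCounts 1.5.0-p1 on the Ensembl release 75 annotation of GRCh37, on the reverse strand, with no normalization, leaving out reads assigned to several places or genes. The submitters' processing notes list Subread, without a version or a role, and the alignment step is not otherwise given in the sources used here. The exon length of each gene was taken from the same deposited table. Libraries were assigned to treatments from the column names.

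Tests were run with edgeR 4.0.16 in R 4.3.3 (TMM factors, filterByExpr, glmQLFit, glmQLFTest, Benjamini-Hochberg adjustment over 16926 genes). The SE is the log2 fold change over the root of F. RPKM used library totals. The fits were run on simulated data with far fewer changed genes than here and the same spread for every gene. That run checks the code and not the results of these data. Replicate libraries differed by more than sampling noise (chi-square per gene 8.35 or more). With these totals, 3 counts equal 0.0671 to 0.197 CPM. Alternatives used other scalings (library totals, DESeq2 size factors, upper quartiles), DESeq2 1.42.0 or voom (limma 3.58.1), a test against a 2-fold change, filters of at least 1 count in any or 10 in every library, thinning, and leaving out each library.

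The members were chosen by gene name, a rule that uses no measured value, and the lists were grouped by role. Both were set with earlier results of these data known. Named were all members, ligase subunits, and JAK and STAT genes, the 3 smallest and the largest adjusted p of each other list, the 3 genes most like each called member, genes next to or overlapping a member and the plasma cell markers. Some single JAK and STAT genes are not reported here. IL6, IL27, CSF3 and LIFR were named after their values were seen.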

Additional observations from a re-analysis of the deposited data

How the results depend on the processing

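SOCS1 and SOCS3 were called higher under all 15 alternatives, with adjusted p of at most 4.52e-05 and 4.40e-07, and no other member was called higher under any. Leaving out each library gave 3.19 to 3.78 for SOCS1 and 7.30 to 7.52 for SOCS3. On library totals SOCS2 (-0.65) and SOCS5 (-0.44) became calls, making 2 members lower, with the median of all genes at -0.19 under that scaling. For CISH the leave-one-out range was -0.53 to -0.18, and the count of members lower was then 0 to 1. SOCS6 changed sign on thinning (0.24) and ranged from -0.21 to 0.12 on leaving out a library, and its counts are too low to give a direction. The cause of the other shifts was not tested.

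Counts of calls in the pathway lists moved as follows. On library totals, other SOCS-box proteins had 1 higher, other negative regulators 2 higher, receptor chains 3 lower, and kinase receptors and adaptors 7 lower. JAK kinases and STAT factors had 5 higher under that scaling, against 7 in the main fit. On upper-quartile factors, other SOCS-box proteins had 1 higher, receptor chains 2 lower, and kinase receptors and adaptors 5 lower. Against a 2-fold change, JAK kinases and STAT factors had 2 higher, receptor chains 2 higher and 0 lower, and other SOCS-box proteins, other negative regulators (0 higher and 0 lower each) and kinase receptors and adaptors (0 lower) lost those calls. With at least 1 count in any library, the ligase subunits had 1 higher and other SOCS-box proteins 3 lower. With at least 10 counts in every library, which leaves fewer ligands to test, 5 ligands were higher. Leaving out each library gave 0 to 1 ligase subunits higher, 1 to 2 other SOCS-box proteins higher and 3 to 4 lower, and 5 to 8 JAK kinases and STAT factors higher. It also gave 0 to 2 other negative regulators lower, 0 to 1 receptor chains lower, and 1 to 2 kinase receptors and adaptors lower.

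Over all genes, calls were 1549 higher and 1937 lower, 927 and 3795 on library totals, 339 and 70 against a 2-fold change, and 2608 higher with at least 1 count in any library. RPKM on TMM-scaled totals moved the mean of SOCS2 (0.282) and SOCS4 (5.36) with GST-PTR1 and of SOCS5 (3.06) with GST by more than 1 SD. No paired analysis was possible because the columns carry other numbers than the replicates in the labels.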
